A study of Arabidopsis thaliana with 6 samples.

Results

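The genes described here are 46 loci of the DNA methylation and RNA-directed silencing machinery of Arabidopsis thaliana, out of 32948 genes with a value. They were taken by locus identifier, for their known roles in the pathway, with earlier results of these data known. Expression was measured by RNA-seq of poly(A) RNA from seedlings, comparing 3 libraries of cnd1-3 with 3 of Col-0, the standard laboratory accession. The labels do not state which gene the cnd1-3 allele affects, how old the seedlings were or how they were grown, so the mutated gene itself could not be checked. Whether replicate libraries stem from separate plants is not stated either, so p-values measure the spread between libraries, which may be technical. Values are FPKM, which are scaled to transcript length and to the reads assigned in a library, so levels of different genes are compared per unit length.

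In plants, cytosine methylation silences transposons and repeats. In RNA-directed DNA methylation (RdDM), RNA polymerase IV makes transcripts that are copied and diced into small interfering RNAs. An argonaute loaded with such an RNA meets nascent transcripts of RNA polymerase V, and the methyltransferase DRM2 methylates the DNA there. A separate set of enzymes copies existing methylation after replication: MET1 in the CG context, CMT3 and CMT2 in other contexts together with histone H3 lysine methyltransferases such as KYP, with help from the VIM proteins and the remodeller DDM1. DNA glycosylases of the ROS1 family remove methylated cytosines.

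The transcripts of MET1, KYP and SUVH2 fell in cnd1-3 seedlings, by 34.1%, 36% and 29.0% of their Col-0 level. Of the 46 loci, 36 had a mean of at least 0.5 FPKM over the 6 libraries and were tested with limma. Of these, 33 did not pass an adjusted p of 0.05. No tested member passed as higher. Libraries of the genotypes did not overlap, in either direction, for 44.4% of the tested members and 33.9% of all tested genes. With every cnd1-3 library above every Col-0 library there were 7 members. Among them were DML3 (log2 fold change 0.46, 95% interval 0.16 to 0.75) and SUVH6 (0.28, 95% interval 0.08 to 0.48). Their limma adjusted p were 0.0563 and 0.0742. The level of SUVH6 is uncertain, because genes on the opposite strand overlap it over a long stretch. The 3 called members are 8.33% of those tested, against 11.1% of all 17096 tested genes. In the lower direction they are 8.33%, against 7.59% of all tested genes, and in the higher direction the members' count of 0 stands against 3.50%. The share called was thus near that of all genes. With median-ratio scaling 5 members were called (against 12.1% of all tested genes), 2 higher (DML3 and SUVH6, against 5.53% of all tested genes) and 3 lower (against 6.55%). Quantile normalization called 5 of the 36 members, against 11.6% of all tested genes, and limma voom on recovered reads called 9, against 14% of all tested genes, each with MET1 and KYP. MET1 was left as the only call without cnd1-3 replicate 1, cnd1-3 replicate 3 or Col-0 replicate 2. Over all genes 68.5% of the calls were lower in cnd1-3, a share that was 54.2% with median-ratio scaling and 50.5% under quantile normalization. The all-gene median log2 fold change was -0.05, and 0.00 and 0.02 under those scalings. The median over the 36 tested members was -0.02, with a range of -0.57 to 0.46.

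**Figure D1:**
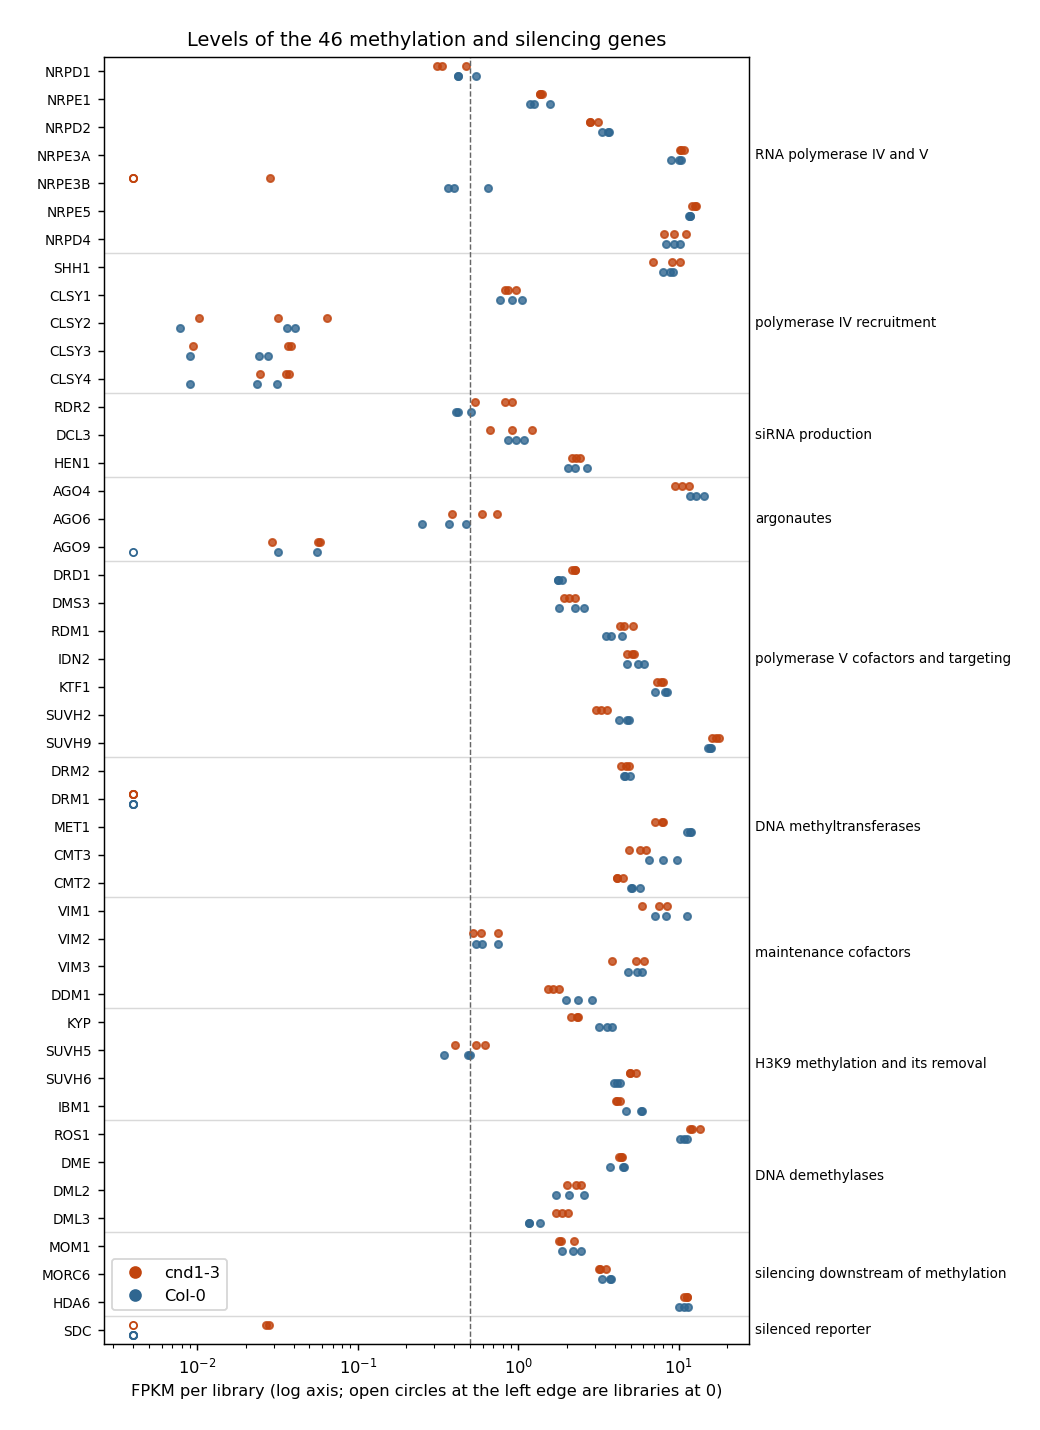
FPKM on a log axis for each of the 46 loci in each library, grouped by pathway step, with cnd1-3 in orange above Col-0 in blue and the dashed line at 0.5 FPKM. Open circles at the left edge are libraries at 0. MET1, KYP and SUVH2 are among the 16 tested members (44.4%, against 33.9% of all tested genes) that separate by genotype. NRPE3B separates at the low end.

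Recovered reads, obtained from FPKM and exon length, numbered 22125814 to 23081866 per cnd1-3 library and 23290031 to 30455907 per Col-0 library. Tested members had 26 to 1799 reads in a library. As a check of the label seedling, the green-leaf markers RBCS1A, LHCB1.1 and CAB3 summed to 30962 to 33553 FPKM in cnd1-3, against 32946 to 35480 FPKM in Col-0. LHCB1.1 (log2 fold change -1.21) and CAB3 (-0.38), which encode light-harvesting proteins, passed the limma test as lower, and RBCS1A (0.13) did not pass. The 5 root markers summed to 12.2 to 12.8 FPKM in cnd1-3 and 11.4 to 13.3 FPKM in Col-0, nearly all from SHR and SCR. PLT1 was at 0 in all libraries, COBL9 reached at most 0.0192 FPKM and WER at most 0.182 FPKM. SHR had 2.33 to 4.16 FPKM and SCR 8.62 to 10.5 FPKM over the 6 libraries, so the root markers were split. The 5 markers of meristems and dividing cells summed to 2.89 to 6.42 FPKM in cnd1-3 and 3.35 to 7.04 FPKM in Col-0, with STM and WUS at 0 in all libraries and none of the 3 tested called. The part of organ makeup in the results below was not tested. In bulk RNA, fewer cells of a type and less RNA per cell cannot be told apart.

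**Figure D2:**
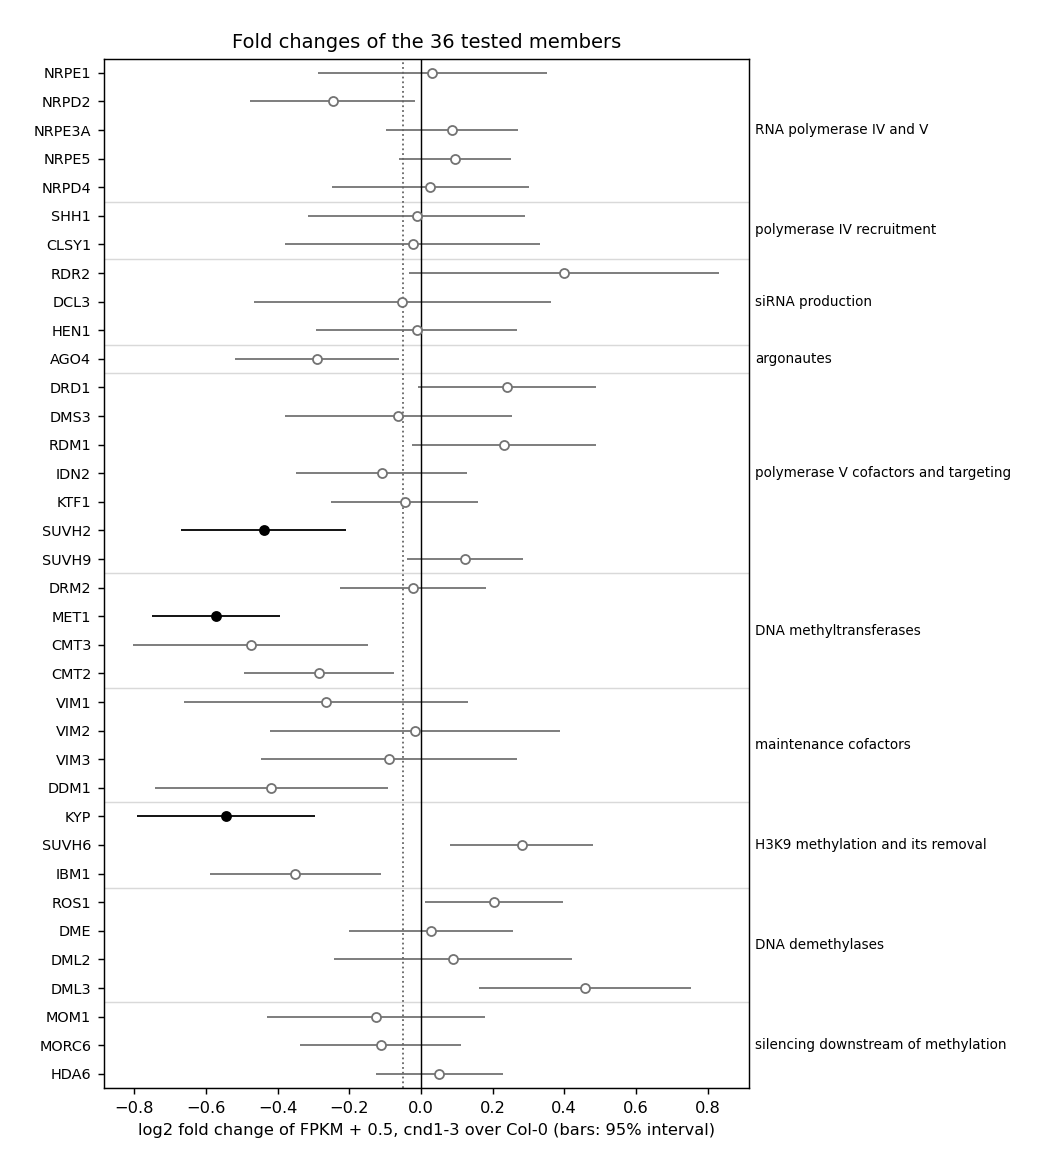
Log2 fold change of FPKM + 0.5, cnd1-3 over Col-0, for the 36 tested members by pathway step, with 95% intervals of the limma fit as bars; filled points passed an adjusted p of 0.05 and the dotted line is the all-gene median. MET1, KYP and SUVH2 are the filled points, and the other 33 points are open.

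MET1 (AT5G49160) is the methyltransferase that maintains CG methylation. It lies at chr5:19932114-19938470 on the plus strand (TAIR10.1 annotation). It had 7.89, 7.91 and 7.10 FPKM in the cnd1-3 libraries, against 11.7, 11.9 and 11.2 FPKM in the Col-0 libraries. Every cnd1-3 library lay below every Col-0 library. The means were 7.63 ± 0.466 FPKM in cnd1-3 and 11.6 ± 0.378 FPKM in Col-0 (SD, n = 3 each), a log2 fold change of -0.57 (SE 0.08, limma adjusted p = 0.00327). The call was made in all 15 alternative settings, with log2 fold changes of -0.60 to -0.51 and adjusted p of 0.000845 to 0.0177.

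The other methyltransferases did not pass the test. CMT3 (AT1G69770), the enzyme of CHG methylation (H stands for any base but G), had 5.70, 6.22 and 4.90 FPKM in cnd1-3, against 7.92, 9.73 and 6.51 FPKM in Col-0. The libraries did not overlap, but those of Col-0 were widely spread (8.06 ± 1.61 FPKM, SD, n = 3), and the log2 fold change of -0.47 (SE 0.14) had a limma adjusted p of 0.0691. CMT2 (AT4G19020), which acts mainly in the CHH context, averaged 4.25 ± 0.218 FPKM in cnd1-3 and 5.29 ± 0.365 FPKM in Col-0 (SD, n = 3 each), a log2 fold change of -0.28 with a limma adjusted p of 0.0821. DRM2 (AT5G14620), the methyltransferase of RdDM, had 4.35, 4.89 and 4.68 FPKM in cnd1-3, against 4.63, 4.57 and 4.95 FPKM in Col-0. These ranges overlapped. Its log2 fold change was -0.02, with a 95% interval of -0.23 to 0.18, which is above the whole interval of MET1 (-0.75 to -0.39). The difference between DRM2 and MET1 was not itself tested. DRM1 (AT5G15380), the paralog of DRM2, had 0 reads in every library, where 3 reads would be 0.0499 to 0.0687 FPKM. As a share of the summed FPKM of MET1, CMT2, CMT3 and DRM2, MET1 made up 33.6% to 35.8% in cnd1-3, against 37.3% to 40.2% in Col-0, with no overlap.

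KYP (AT5G13960, also SUVH4) methylates histone H3 at lysine 9, the mark that CMT3 and CMT2 bind. It lies at chr5:4501362-4506250 on the plus strand. It had 2.35, 2.32 and 2.12 FPKM in cnd1-3, against 3.59, 3.84 and 3.18 FPKM in Col-0. The genotypes did not overlap. The means were 2.26 ± 0.125 FPKM in cnd1-3 and 3.53 ± 0.334 FPKM in Col-0 (SD, n = 3 each), a log2 fold change of -0.54 (SE 0.11, limma adjusted p = 0.0172). The call was lost without cnd1-3 replicate 1 (adjusted p = 0.0506), cnd1-3 replicate 3 (0.057), Col-0 replicate 1 (0.05, just past the threshold) or Col-0 replicate 2 (0.0589), and was made in the other 11 settings. KYP shares 60 bases with AT5G13970 on the opposite strand, where reads could belong to either gene, since the labels do not give strandedness.

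The remaining genes of this histone mark did not pass the test. SUVH6 (AT2G22740), which acts with KYP on the same residue, had 5.39, 4.99 and 4.93 FPKM in cnd1-3, against 3.95, 4.28 and 4.10 FPKM in Col-0. All cnd1-3 libraries were above all Col-0 libraries, with a log2 fold change of 0.28 (SE 0.09) and a limma adjusted p of 0.0742. SUVH6 is overlapped by 1496 bases of AT2G22730 and 2487 bases of AT2G07845, both on the opposite strand, so its level is uncertain. IBM1 (AT3G07610), a histone demethylase that keeps this mark out of gene bodies, had 4.11, 4.05 and 4.32 FPKM in cnd1-3, against 5.91, 5.78 and 4.71 FPKM in Col-0. No library of a genotype reached the other's range and the log2 fold change was -0.35 (SE 0.10, limma adjusted p = 0.0656). SUVH5 stayed below the minimum level, with 118 summed reads in cnd1-3 and 117 in Col-0.

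Of the maintenance cofactors, none of 4 passed the test. DDM1 (AT5G66750), a chromatin remodeller that gives methyltransferases access to heterochromatin, had 1.80, 1.65 and 1.52 FPKM in cnd1-3, against 2.34, 2.87 and 1.98 FPKM in Col-0. The ranges were apart, and the log2 fold change of -0.42 (SE 0.14) had a limma adjusted p of 0.0956. The VIM proteins bind hemimethylated CG sites and are needed for MET1 function. VIM1 averaged 7.25 ± 1.27 FPKM in cnd1-3 and 8.90 ± 2.17 FPKM in Col-0, VIM3 5.12 ± 1.18 FPKM in cnd1-3 and 5.4 ± 0.542 FPKM in Col-0, and VIM2 0.619 ± 0.118 FPKM in cnd1-3 and 0.631 ± 0.107 FPKM in Col-0 (SD, n = 3 each). All 3 overlapped between genotypes, with log2 fold changes of -0.27, -0.09 and -0.02 and limma adjusted p of 0.355, 0.750 and 0.965. The coding sequences of VIM2 and VIM3 were 95.8% identical, with a longest identical run of 116 bases. None of the 1705 windows of 150 bases, the read length, in VIM3 occurred in VIM2. A full read inside the coding sequence thus carries at least some difference. How reads with several matches were counted is not given, so the split between those paralogs keeps some uncertainty. Over MET1, CMT2, CMT3, VIM1 to VIM3, DDM1, KYP, SUVH5 and SUVH6, 9 of 10 genes were tested and 2 passed as lower. That is 22.2% of the 9, against 7.59% of all tested genes called lower and 11.1% called in either direction. This group was not one of the planned steps and leaves out IBM1, DRM1 and DRM2 of the steps it joins. With 2 calls among 9 genes the share is a description only. The median log2 fold change was -0.28, with 8 below 0 and 1 above, where 59.9% of all tested genes were below 0. VIM2 turned to 0.01 with median-ratio scaling and 0.10 under quantile normalization, and VIM3 to 0.02 under the second of these.

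**Figure D3:**
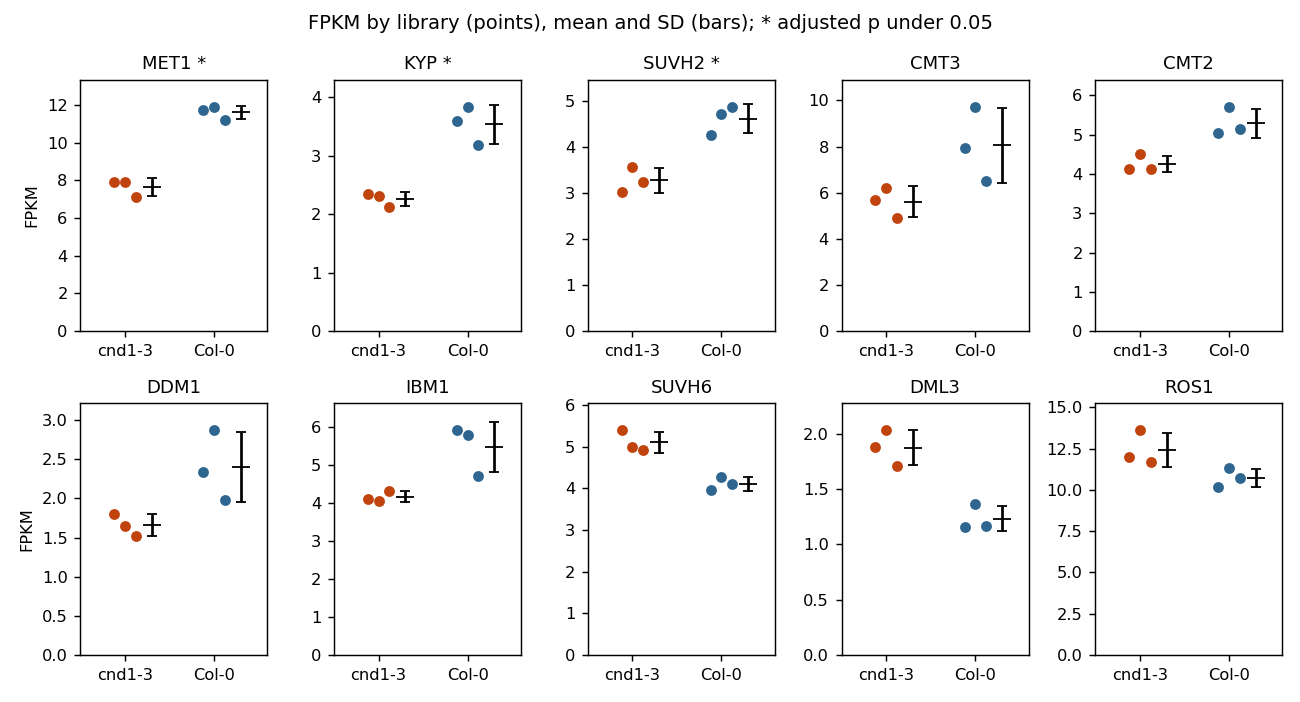
FPKM by library for 10 members, with cnd1-3 left of Col-0, points for libraries and bars for mean and SD (n = 3); an asterisk marks an adjusted p under 0.05. The 10 come from the 16 tested members whose libraries did not overlap (9 lower, 7 higher), so the separation in every panel follows from that choice. Over all tested genes, libraries did not overlap for 33.9%. The 7 from MET1 to IBM1 are lower and SUVH6, DML3 and ROS1 are higher in cnd1-3.

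Because MET1 and KYP changed, the 250 bases upstream of their annotated starts are shown, from the TAIR10.1 genome, plus strand, at chr5:19931864-19932113 for MET1 and chr5:4501112-4501361 for KYP. Capitals mark GGCCCA on either strand (TGGGCC on the strand shown), the element known as site II, which is common upstream of genes active in growing tissue.
MET1: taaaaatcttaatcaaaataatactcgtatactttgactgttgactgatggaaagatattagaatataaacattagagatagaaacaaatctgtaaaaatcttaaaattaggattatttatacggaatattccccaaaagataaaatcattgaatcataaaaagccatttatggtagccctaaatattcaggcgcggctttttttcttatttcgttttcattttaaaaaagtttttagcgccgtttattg
KYP: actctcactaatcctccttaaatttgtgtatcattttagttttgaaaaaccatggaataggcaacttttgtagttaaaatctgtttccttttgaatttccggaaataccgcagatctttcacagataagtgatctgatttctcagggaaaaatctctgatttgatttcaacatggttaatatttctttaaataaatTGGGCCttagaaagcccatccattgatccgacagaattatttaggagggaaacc
The MET1 window held no match and the KYP window held 1. The motif was present upstream of 9 of the 46 members (19.6%) and of 3747 of 27444 genes with such a window (13.7%). The letters TTTCCCGC, TTTGGCGC, TTTCGCGC and TTTGCCGC, known as E2F sites, were searched on both strands and found upstream of 1 member, ROS1 (2.17%), and of 1.41% of all genes. A match is a description of these letters only.

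Of the 4 DNA demethylases none passed the test. DML3 (AT4G34060), a glycosylase of the ROS1 family, had 1.88, 2.03 and 1.71 FPKM in cnd1-3, against 1.16, 1.36 and 1.17 FPKM in Col-0. All cnd1-3 libraries were above all Col-0 libraries. Its log2 fold change of 0.46 (SE 0.13) had a limma adjusted p of 0.0563, and it passed in 5 of 14 alternatives (0.00716 to 0.163 over all of them). ROS1 (AT2G36490), the main demethylase of vegetative tissue, had 12, 13.6 and 11.7 FPKM in cnd1-3, against 10.2, 11.3 and 10.7 FPKM in Col-0. There was no overlap between the genotypes, and the log2 fold change of 0.20 (95% interval 0.01 to 0.40) had a limma adjusted p of 0.152. DME (AT5G04560), best known from the central cell of the ovule, averaged 4.34 ± 0.0977 FPKM in cnd1-3 and 4.26 ± 0.449 FPKM in Col-0 (SD, n = 3 each), and DML2 averaged 2.26 ± 0.222 FPKM in cnd1-3 and 2.11 ± 0.422 FPKM in Col-0. Both overlapped between genotypes (log2 fold changes 0.03 and 0.09, limma adjusted p 0.882 and 0.726), and their log2 fold changes were -0.05 and -0.02 without Col-0 replicate 1. ROS1 made up 58.7% to 60.5% of the summed FPKM of the 4 genes in cnd1-3, against 57.2% to 60.7% in Col-0.

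Along the RdDM steps, from the polymerases to DRM2, 27 loci were listed, 19 were tested and 1 passed, as lower. That is 5.26% of the 19, against 7.59% of all tested genes called lower and 11.1% called in either direction. This joined group, too, was not one of the planned steps. The median log2 fold change of the 19 was -0.01. The gene that passed was SUVH2, which binds methylated DNA and brings RNA polymerase V to it. SUVH2 (AT2G33290, chr2:14108529-14112464, plus strand) had 3.03, 3.56 and 3.25 FPKM in cnd1-3, against 4.26, 4.72 and 4.88 FPKM in Col-0. The libraries of the genotypes were apart. The means were 3.28 ± 0.267 FPKM in cnd1-3 and 4.62 ± 0.322 FPKM in Col-0 (SD, n = 3 each), a log2 fold change of -0.44 (SE 0.10, limma adjusted p = 0.0281). SUVH2 shares 60 bases with AT2G08565 on the opposite strand. The call was made in 9 of 15 alternatives. It was lost without cnd1-3 replicate 1 (adjusted p = 0.103), cnd1-3 replicate 3 (0.0771), Col-0 replicate 2 (0.082) or Col-0 replicate 3 (0.0657), with no minimum level (0.0583) and after quantile normalization (0.0615).

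SUVH9 (AT4G13460), the paralog that acts redundantly with SUVH2, was the more abundant member of the pair in every library. It had 16.0, 17.9 and 17.1 FPKM in cnd1-3, against 15.2, 15.8 and 15.7 FPKM in Col-0. These libraries did not overlap, but the log2 fold change of 0.12 had a limma adjusted p of 0.297. SUVH9 made up 83.4% to 84.1% of the pair's summed FPKM in cnd1-3, against 76.3% to 78.2% in Col-0. Their coding sequences were 64.0% identical with a longest identical run of 14 bases.

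The other RNA polymerase V cofactors did not pass. DRD1 (AT2G16390), the remodeller of the complex that loads polymerase V, had 2.26, 2.16 and 2.24 FPKM in cnd1-3, against 1.76, 1.88 and 1.77 FPKM in Col-0. These libraries did not overlap, with a log2 fold change of 0.24 and a limma adjusted p of 0.189. Its partners DMS3 and RDM1, the double-stranded RNA binding protein IDN2 and the argonaute-binding elongation factor KTF1 overlapped between genotypes, with log2 fold changes of -0.06, 0.23, -0.11 and -0.04. DMS3 and RDM1 each share a long stretch with a gene on the opposite strand, of 2243 bases with AT3G49240 and 1899 bases with AT3G22670, so their levels are uncertain.

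Of the 7 subunits of RNA polymerases IV and V among the members, 5 were tested and none passed. A further subunit gene outside the 46, NRPE9B, is given below with the other pathway genes. NRPE5 (AT3G57080), a subunit specific to polymerase V, was the most abundant. It had 12.6, 12.1 and 12.8 FPKM in cnd1-3, against 11.7, 11.5 and 11.8 FPKM in Col-0. The libraries did not overlap, and the log2 fold change was 0.10 (95% interval -0.06 to 0.25, limma adjusted p = 0.403). The largest subunit of polymerase V, NRPE1, averaged 1.37 ± 0.026 FPKM in cnd1-3 and 1.34 ± 0.217 FPKM in Col-0 (SD, n = 3 each; log2 fold change 0.03, 95% interval -0.29 to 0.35). NRPD2 (AT3G23780), the second-largest subunit of both polymerases, had 2.78, 2.79 and 3.15 FPKM in cnd1-3, against 3.31, 3.67 and 3.64 FPKM in Col-0. All cnd1-3 libraries were lower, with a log2 fold change of -0.25 and a limma adjusted p of 0.150. NRPD4 (AT4G15950), shared by both polymerases, had a log2 fold change of 0.03 with overlapping libraries. NRPD1 (AT1G63020), the largest subunit of polymerase IV, was below the minimum level, with 136 summed reads in cnd1-3 and 197 in Col-0. As a share of all reads that is a ratio of 0.819, with an exact binomial 95% interval of 0.653 to 1.02. Intervals on reads cover counting error only.

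NRPE3B and NRPE3A are paralogous genes for the third-largest polymerase subunit, and NRPE3A (also NRPB3) serves RNA polymerase II as well. NRPE3B (AT2G15400, chr2:6712895-6714609) lies upstream of NRPE3A (AT2G15430, chr2:6733534-6735819), both on the plus strand. Their coding sequences of 960 bases were 91.5% identical, with a longest identical run of 84 bases, and none of the 811 windows of 150 bases in NRPE3B occurred in NRPE3A. The reads were 150 bases long, so a read inside the coding sequence carries at least some difference between them. To show how reads tell them apart, coding bases 124 to 183 are given from the TAIR10.1 genome, at chr2:6733784-6733843 for NRPE3A and chr2:6713145-6713204 for NRPE3B, with the 9 differing bases in capitals.
NRPE3A: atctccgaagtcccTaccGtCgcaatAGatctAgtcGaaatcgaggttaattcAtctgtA
NRPE3B: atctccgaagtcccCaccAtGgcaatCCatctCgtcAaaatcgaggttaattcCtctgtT
The 250 bases upstream of NRPE3B, the copy whose reads differ between the genotypes, are shown as well, at chr2:6712645-6712894 on the plus strand, with GGCCCA on either strand in capitals.
NRPE3B upstream: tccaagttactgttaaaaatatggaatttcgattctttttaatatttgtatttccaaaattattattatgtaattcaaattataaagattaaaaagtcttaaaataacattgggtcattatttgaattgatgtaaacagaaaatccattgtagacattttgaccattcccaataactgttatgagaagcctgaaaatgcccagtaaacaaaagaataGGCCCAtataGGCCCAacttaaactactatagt
This window held 2 matches.

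NRPE3B transcripts were nearly missing from cnd1-3. The gene had 0, 0 and 1 reads in the cnd1-3 libraries, against 30, 16 and 13 reads in the Col-0 libraries. That is 1 read in cnd1-3, all of it in replicate 3, and 59 in Col-0, a read share 49.8-fold lower in cnd1-3, with an exact binomial 95% interval of 8.59 to 1998. At a mean of 0.240 FPKM the gene was below the minimum level and so not among the 36 tested. In the limma fit with no minimum level it was called lower, with a log2 fold change of -0.92 (SE 0.12, adjusted p = 0.00845), a value that the added 0.5 FPKM holds down. The list that holds NRPE3B was chosen with earlier results of these data known, so these values are a description only. NRPE3A had 459, 461 and 504 reads in cnd1-3, against 635, 537 and 424 reads in Col-0. At 10.4 ± 0.327 FPKM in cnd1-3 and 9.75 ± 0.697 FPKM in Col-0 (SD, n = 3 each), its libraries overlapped, with a log2 fold change of 0.09 (95% interval -0.10 to 0.27, limma adjusted p = 0.524). NRPE3B made up 0% to 0.264% of the pair's summed FPKM in cnd1-3, against 3.82% to 5.92% in Col-0. The nearest gene on the other side of NRPE3B, FUT4 on the minus strand, had 9, 1 and 23 reads in cnd1-3, against 26, 32 and 51 reads in Col-0. AT2G15420, between the paralogs, had no reads in any library.

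**Figure D4:**
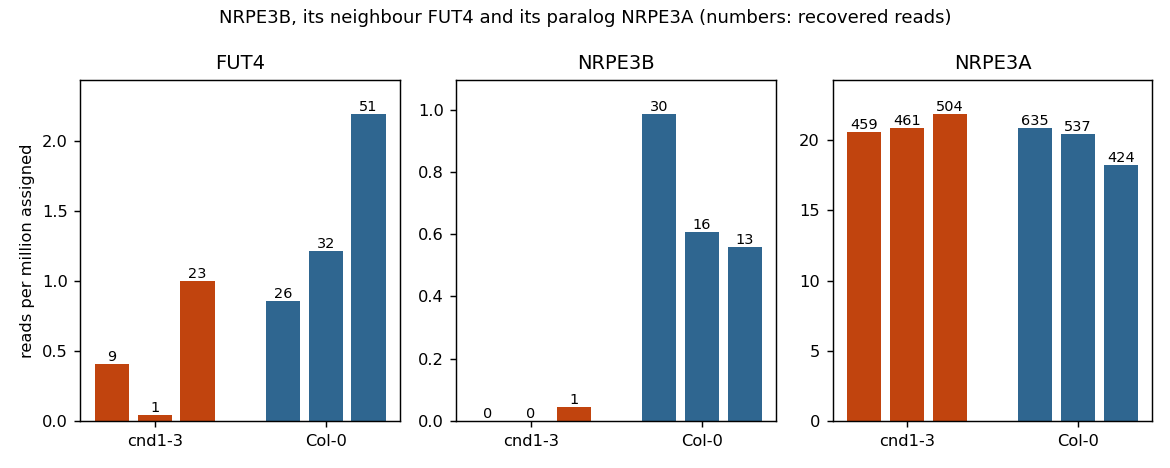
Recovered reads, scaled to each library's assigned reads, of FUT4, NRPE3B and NRPE3A in each library, with cnd1-3 left of Col-0 and the recovered reads printed on the bars. NRPE3B had 1 read in the 3 cnd1-3 libraries together and 59 in the 3 Col-0 libraries, while NRPE3A had 459 to 504 in cnd1-3 and 424 to 635 in Col-0.

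Polymerase IV is brought to chromatin by SHH1, which reads histone marks, and by the CLSY remodellers. SHH1 had 6.87, 10.1 and 9.04 FPKM in cnd1-3, against 8.86, 9.19 and 7.93 FPKM in Col-0, and the ranges overlapped (log2 fold change -0.01, 95% interval -0.32 to 0.29, limma adjusted p = 0.965). CLSY1 averaged 0.884 ± 0.0707 FPKM in cnd1-3 and 0.910 ± 0.139 FPKM in Col-0 (SD, n = 3 each), with a log2 fold change of -0.02. CLSY1 was by far the most abundant of its family, at 85.6% to 92.9% of the summed FPKM in cnd1-3 and 90.9% to 94.5% in Col-0. CLSY2 had 10 summed reads in cnd1-3 and 9 in Col-0, CLSY3 had 9 in cnd1-3 and 8 in Col-0, and CLSY4 had 8 in cnd1-3 and 6 in Col-0, too few to show a difference at this depth.

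In small RNA production, none of 3 genes passed. RDR2 (AT4G11130), the RNA-dependent RNA polymerase that copies polymerase IV transcripts, had 0.917, 0.827 and 0.536 FPKM in cnd1-3, against 0.424, 0.409 and 0.508 FPKM in Col-0. The genotypes did not overlap, but the log2 fold change of 0.40 had a wide 95% interval, -0.03 to 0.83 (limma adjusted p = 0.207). The Dicer enzyme DCL3 overlapped between genotypes (log2 fold change -0.05). HEN1 (AT4G20910), which methylates the ends of small RNAs and was the most abundant of these genes, had 2.30, 2.43 and 2.17 FPKM in cnd1-3, against 2.26, 2.69 and 2.05 FPKM in Col-0, also overlapping (log2 fold change -0.01, limma adjusted p = 0.962).

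AGO4 (AT2G27040), the main argonaute of RdDM, had 10.4, 11.5 and 9.52 FPKM in cnd1-3, against 12.8, 14.3 and 11.7 FPKM in Col-0. All cnd1-3 libraries were lower, with a log2 fold change of -0.29 (SE 0.10) and a limma adjusted p of 0.0985. AGO6 (AT2G32940), which acts beside it, had 27, 51 and 43 reads in cnd1-3, against 24, 39 and 27 reads in Col-0, below the minimum level. Its read share ratio was 1.59 (exact binomial 95% interval 1.20 to 2.12), but its libraries overlapped in FPKM, and the limma fit with no minimum level gave an adjusted p of 0.297. AGO9 (AT5G21150), known from the ovule, had 10 summed reads in cnd1-3 and 7 in Col-0. AGO4 made up 93.6% to 95.9% of the summed FPKM of these argonautes in cnd1-3, against 96.5% to 97.8% in Col-0.

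Downstream of methylation, the silencing factor MOM1, the ATPase MORC6 and the histone deacetylase HDA6 all overlapped between genotypes. HDA6 (AT5G63110), the most abundant, had 10.8, 11.3 and 11.2 FPKM in cnd1-3, against 11.4, 10.8 and 9.97 FPKM in Col-0 (log2 fold change 0.05, 95% interval -0.13 to 0.23, limma adjusted p = 0.710). MOM1 and MORC6 had log2 fold changes of -0.13 and -0.11. SDC (AT2G17690), an F-box gene with promoter repeats that DNA methylation silences, had 0, 1 and 1 reads in cnd1-3 and 0 reads in each Col-0 library. Both sums lie under 3 reads, which would be 0.0606 to 0.0834 FPKM in a library, so no difference was detectable at this depth. SDC also shares 1303 bases with AT2G17695 on the opposite strand, so its level is uncertain for that reason too.

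Counted without a threshold on adjusted p, 16 of the 36 tested members (44.4%) had libraries that did not overlap between genotypes, against 33.9% of all tested genes. Of these, 9 were lower in cnd1-3 (MET1, CMT3, CMT2, DDM1, KYP, IBM1, SUVH2, AGO4 and NRPD2) and 7 were higher (SUVH6, SUVH9, DML3, ROS1, DRD1, RDR2 and NRPE5). At an unadjusted p under 0.05 there were 12 members (33.3%), 3 higher and 9 lower, against 28.6% of all tested genes.

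**Figure D5:**
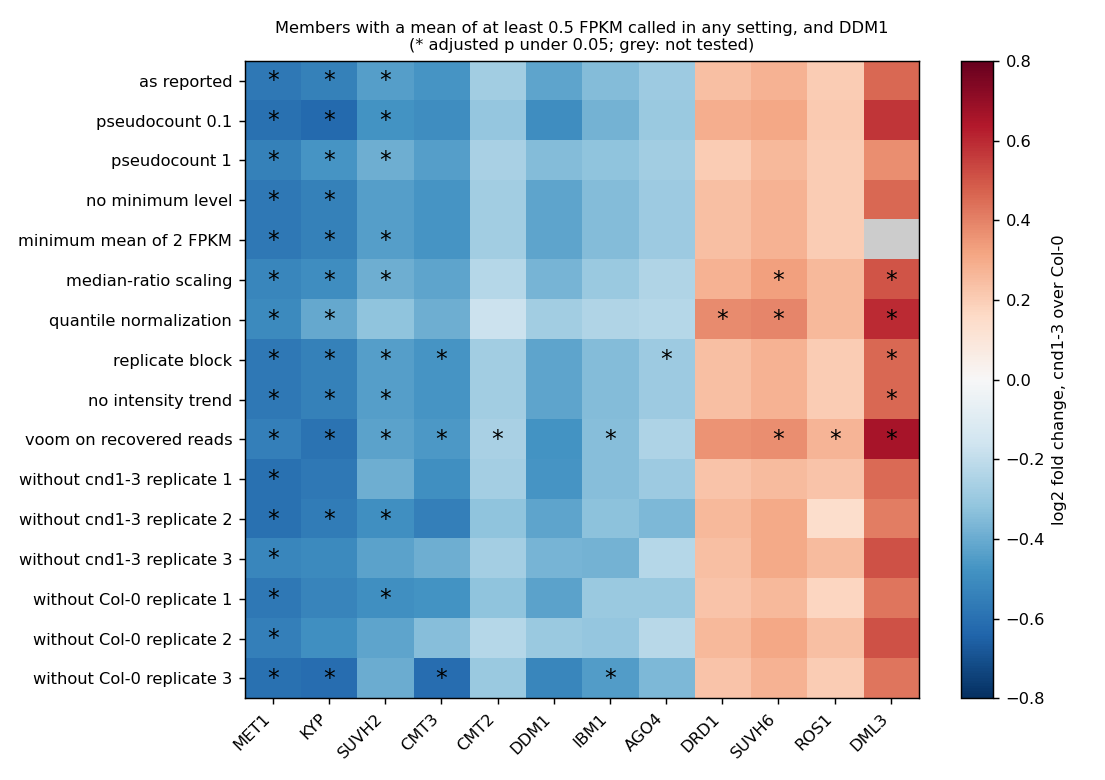
Log2 fold change, cnd1-3 over Col-0, as colour for 12 members under the reported setting (top row) and 15 alternatives, with asterisks for an adjusted p under 0.05 and grey for not tested. MET1 carries an asterisk in every row, KYP and SUVH2 in part of them, and no gene changes sign.

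A further 56 genes of methylation, small RNA and histone pathways were listed, of which 48 were tested. Of these 2 passed as higher and 6 as lower (16.7%, against 11.1% of all tested genes), with a median log2 fold change of -0.08. FDM2, a relative of the RdDM factor IDN2, had 0.348, 0.273 and 0.299 FPKM in cnd1-3, against 1.05, 1.43 and 1.35 FPKM in Col-0. No library of a genotype reached the other's range and the log2 fold change was -1.13 (SE 0.17, limma adjusted p = 0.00499). FDM2 is 96% identical in coding sequence to FDM1, and 119 of its 1759 windows of 150 bases also occur in FDM1, so its level is uncertain. SGS3, a partner of RDR6 in making secondary small RNAs, had 4.34, 4.50 and 3.97 FPKM in cnd1-3, against 7.62, 6.30 and 6.27 FPKM in Col-0. Its log2 fold change was -0.60 (SE 0.10, limma adjusted p = 0.00883), with no overlap. The other named genes were MORC2, a relative of MORC6 (log2 fold change 0.54, adjusted p = 0.0153), RDR1 (-0.49, 0.0321), MBD7, which binds methylated DNA and works with the demethylation machinery (-0.40, 0.0322), and UBP26, a histone deubiquitinase (-0.39, 0.0329). The remaining gene that passed as higher, NRPE9B, encodes a polymerase V subunit and is named here because of its value. It had 7.47, 6.47 and 7.13 FPKM in cnd1-3, against 5.61, 5.4 and 4.77 FPKM in Col-0. Its libraries did not overlap, with a log2 fold change of 0.39 (SE 0.10, limma adjusted p = 0.0361), but the call was made in none of the 6 fits with 1 library left out. Leaving out 1 library in turn gave 2 to 5 calls in place of 8, fewest without cnd1-3 replicate 1, with FDM2 and SGS3 called each time, MORC2 in 5 of 6 cases, MBD7 in 2, and RDR1 and UBP26 in 1 each.

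Of 7 listed genes that methylation can silence, 6 had a row and 2 were tested. Whether methylation silences each of them in Col-0 seedlings was not tested. QQS, an orphan gene of starch metabolism with repeats upstream whose methylation varies between plants, had 103, 92.8 and 93.5 FPKM in cnd1-3, against 16.4, 12.3 and 9.12 FPKM in Col-0. The ranges were apart and QQS rose, with a log2 fold change of 2.92 (SE 0.17, limma adjusted p = 0.000181). APUM9 averaged 0.632 FPKM in cnd1-3 and 0.940 FPKM in Col-0, with a log2 fold change of -0.35 and an adjusted p of 0.189. FWA, SUP and DOGL4 had no reads in any library, and EPF2 had 19 summed reads in cnd1-3 and 41 in Col-0. EVD was not analysed here.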

How the data were processed

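RNA-seq of 3 cnd1-3 and 3 Col-0 seedling libraries was used, grouped by the genotype in the labels. The authors deposited FPKM per gene and library. HISAT2, featureCounts, Subread, DESeq2 and the TAIR10 build are named in the submitters' processing notes, without versions or roles, and the labels do not give strandedness. FPKM times the exon length of the TAIR10.1 annotation, in units of what 1 read is worth in that library, came within 0.01 of a whole number for 99.34% to 99.37% of values per library, and these are the recovered reads. They may be read pairs.

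Genes with a mean of at least 0.5 FPKM (17096) were tested on log2(FPKM + 0.5) with limma 3.58.1 (R 4.3.3, intensity trend) and Benjamini-Hochberg adjustment over all of them, at 0.05. Fold changes are on the log2(FPKM + 0.5) scale, which understates changes of low genes. Read shares of genes under the minimum were compared with exact binomial intervals. The 15 alternatives covered pseudocount, minimum level, scaling, replicate block, intensity trend, limma voom on recovered reads and each library left out. Named genes were all 46 members, with full values for those past the threshold, the most abundant of each step, SDC and paralog pairs, the 6 other pathway genes with the largest change among those past the threshold, and all other silencing targets. Further members were given full values after theirs were seen, where libraries did not overlap. The members and lists were chosen with earlier results of these data known. Sequences come from the TAIR10.1 genome of NCBI RefSeq.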

Additional observations from a re-analysis of the deposited data

How the results depend on the processing

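The count of called members, 3 as reported, was 5 under median-ratio scaling, 5 under quantile normalization and 9 under limma voom on recovered reads, where 12.1%, 11.6% and 14% of all tested genes were called. Leaving out 1 library in turn gave 1 to 4 called members, 906 to 1848 called genes in place of 1896, and 2 to 5 other pathway genes in place of 8. With no minimum level 3 other pathway genes were called. DML3 passed as higher after both scalings, without the intensity trend and with voom, SUVH6 after both scalings and with voom, DRD1 after quantile normalization, and ROS1 with voom. CMT3, CMT2 and IBM1 passed as lower with voom. CMT3 and IBM1 also passed without Col-0 replicate 3. Over all genes, 51.6% of the voom calls were lower in cnd1-3. No named gene past the threshold changed direction in an alternative. The cause of these moves was not tested.

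With the replicate number as a block, 2879 of 17096 tested genes were called in place of 1896, and 6 of 36 tested members in place of 3. The calls thus rose over all genes as well as among the members. The added members were DML3 (higher), CMT3 and AGO4 (lower). The labels do not say whether the numbers pair the libraries. Deviations from the genotype means correlated by 0.0324, 0.157 and 0.263 for numbers 1 to 3. For cnd1-3 replicates 2 and 3 the Col-0 library of the same number was the best match. The cnd1-3 replicate 1 correlated best with Col-0 replicate 2 (0.0846). Whether the numbers stand for shared batches was not tested.

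Genes annotated as transposable elements, a planned readout of silencing, were not analysed here. With 3 libraries per genotype and members at 26 reads or more, depth limits most the 6 loci with 10 or fewer summed reads in each genotype (CLSY2, CLSY3, CLSY4, AGO9, DRM1 and SDC).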
